A study of Homo sapiens with 12 samples.

Results

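The genes described here are 35 genes of the endoplasmic reticulum (ER): stress sensors and their transcription factors, protein-folding chaperones, disulfide-forming enzymes, and the machinery of ER-associated degradation (ERAD). They were chosen by gene symbol, and each matched 1 of the 20332 genes in the deposited expression table. By role they fall into 5 sensors and transcription factors, 10 chaperones, 6 disulfide enzymes and 14 genes of ERAD and the protein-conducting translocon. Their transcripts were measured by RNA sequencing in Ishikawa and KLE cells, which are human endometrial cancer cell lines. Each line was cultured for 24 h either untreated or in 200 µM CuCl2, giving 4 groups of 3 libraries, 12 libraries in all. Control cells carry the words untreated and vehicle in the labels and are called untreated here; replicates of a group are given as independent. Each group is 1 cell line in culture, so the values hold for these lines and not for endometrial tissue.

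Secreted and membrane proteins fold inside the ER, where chaperones of the HSP70 and HSP90 families, lectin chaperones and protein disulfide isomerases act on them. When unfolded proteins accumulate, the membrane sensors IRE1 (gene ERN1), PERK (gene EIF2AK3) and ATF6 start the unfolded protein response (UPR), in which the transcription factors XBP1 and cleaved ATF6 switch on chaperone and ERAD genes through short promoter elements. ERAD recognises proteins that fail to fold, passes them back through the membrane with the help of the ligase pair SYVN1 and SEL1L, and hands them to the proteasome.

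The promoter elements through which ATF6 and XBP1 are known to act are shown first, for the minority of members that carry one. RefSeq promoter windows (GRCh38.p14, 250 bases before to 50 bases after a start site) were matched for 32 of the 35 genes, in 41 windows. PDIA3, DERL1 and DERL3 had no entry. The ER stress response element (ERSE: CCAAT, then any 9 bases, then CCACG, on either strand) was present in 7 of the 32 genes (21.9%) and in 25 of 27305 genes with a window (0.0916%). The 7 genes were XBP1, HSPA5, HSP90B1, CALR, CANX, CRELD2 and PDIA6. The shorter ERSE-II (ATTGG, any 1 base, CCACG, on either strand) was present in SDF2L1, HYOU1 and HERPUD1 (9.38%) and in 19 of the 27305 genes (0.0696%). Below are 7 of these 10 genes, each on the gene's own strand from 5′ to 3′, with the fixed letters of the element in capitals and 10 bases of flank on each side.
HSPA5, chr9:125241381-125241419, minus strand: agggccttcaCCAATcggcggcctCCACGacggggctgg
XBP1, chr22:28800593-28800631, minus strand: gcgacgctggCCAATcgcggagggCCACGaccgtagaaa
PDIA6, chr2:10812843-10812881, minus strand: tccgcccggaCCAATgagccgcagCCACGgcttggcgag
CALR, chr19:12938374-12938412, plus strand: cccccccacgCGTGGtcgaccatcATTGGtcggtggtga
CRELD2, chr22:49918544-49918582, plus strand: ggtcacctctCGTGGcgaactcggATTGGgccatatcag
HERPUD1, chr16:56932015-56932045, plus strand: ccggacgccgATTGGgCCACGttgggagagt
SDF2L1, chr22:21642104-21642134, plus strand: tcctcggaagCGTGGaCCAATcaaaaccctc

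In CALR, CRELD2 and SDF2L1 the element reads on the opposite strand. The unfolded protein response element (UPRE, TGACGTGG, either strand), which XBP1 binds, was present in HYOU1, TXNDC5 and TXNDC11 and in 0.927% of all genes with a window. In HYOU1 its letters overlapped an ERSE-II. The C/EBP-ATF response element bound by ATF4 (CARE, TGATGNAAT, either strand) was found in 0 of the 32 genes and in 1.22% of all genes. The heat shock element (GAA, any 2 bases, TTC, any 2 bases, GAA, on either strand) was also found in 0 of the 32 genes, and in 0.608% of all genes. These are matches of letters in a short window and say nothing about binding. The members were picked for their ER functions, so their shares beside those of all genes are a description and not a test.

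Libraries held between 14050275 and 25057003 counts, and mitochondrial transcripts made up 4.05 to 7.21% of them. Epithelial markers summed to between 2580 and 6160 TPM, the authors' length-corrected expression unit, across the 12 libraries. In the Ishikawa libraries that sum was 3700 to 4170 TPM without copper and 2580 to 2710 TPM with it, and in the KLE libraries 5270 to 5580 and 6080 to 6160 TPM; the part of this shift in the results below was not tested. The 6 fibroblast markers summed to at most 50.7 TPM, the 6 leukocyte markers to at most 36.4 TPM and the 4 endothelial markers to at most 4.04 TPM. ESR1, the estrogen receptor gene, was close to 0 without copper (0.124 ± 0.112 TPM in Ishikawa, 0.104 ± 0.0758 TPM in KLE; SD, n = 3), although Ishikawa is usually described as receptor-positive. The group means of the untreated lines had a Pearson r of 0.968 over 13663 genes, which are not independent replicates, and 494 genes (3.62%) were called different by more than 4-fold. The identity of the lines was not tested here. The untreated Ishikawa library 2 was the deepest and stood apart from its 2 replicates, with a chi-square per gene of 8.45 and 12.8 against them, where other pairs within a group gave 2.05 to 3.95. Calls of members gained or lost without it are given beside the results.

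Before copper, the members spanned a wide range of abundance. On the TPM scale, which allows levels of different genes to be compared, untreated Ishikawa cells held most of HSP90B1 (GRP94, the ER HSP90) at 1588 ± 43.7 TPM, CALR (calreticulin, a lectin chaperone) at 1392 ± 21.99 TPM and CANX (calnexin, its membrane-bound relative) at 1018 ± 6.97 TPM (SD, n = 3). For HSPA5 (BiP, the ER HSP70) the level was 596 ± 14.5 TPM there, against 895 ± 59.1 TPM in KLE cells without copper (SD, n = 3). The sensors were far less abundant, with ATF6 at 54.3 ± 1.42 TPM, EIF2AK3 at 36.6 ± 3.05 TPM and ERN1 at 4.89 ± 0.449 TPM in untreated Ishikawa cells (SD, n = 3). DERL3, a derlin of the ERAD channel, was the least abundant, with 13, 23 and 6 counts in the untreated and 8, 3 and 4 counts in the copper-treated Ishikawa libraries. Its exons share 77% of their bases with SMARCB1 on the opposite strand. The untreated KLE libraries held 5, 2 and 6 DERL3 counts and the copper-treated ones 10, 3 and 1. DERL3 did not pass the count filter in any comparison, and the other 34 passed in all of them.

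In Ishikawa cells most of these genes were called changed with copper. ERAD and translocon genes were mostly higher, with SELENOK 3.26-fold and HERPUD1 1.95-fold above the untreated level. HSPA5 was 1.61-fold higher, while SDF2L1, PDIA4 and TXNDC5 were lower. By edgeR's quasi-likelihood test with a Benjamini-Hochberg adjusted p under 0.05 over all genes, 19 of the 34 tested members (55.9%) were called higher, 8 (23.5%) lower and 7 not called. Of all 13359 genes tested, 33.8% were called higher and 35.3% lower, 69.1% in either direction, so most tested genes were called in these cells. The median log2 fold change was 0.16 over the members and -0.01 over all genes. Without the untreated library 2 the counts were 19 higher and 10 lower. The split depends on scaling. It was 13 higher and 13 lower when libraries were scaled to their totals, which moved the median of all genes to -0.17. On log2(TPM + 1) it was 10 higher and 13 lower. DERL3 was also tested in that setting and is among the 13.

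In KLE cells the response of the members had a smaller range of log2 fold changes, from -0.34 to 0.70 against -0.67 to 1.71 in Ishikawa cells. Here 6 of 34 members (17.6%) were called higher, all of them ERAD and translocon genes, 9 (26.5%) lower and 19 not called. Among all 13031 genes tested in KLE cells, 25.6% were called higher and 25.2% lower, 50.8% in either direction. The median was -0.02 over the members and -0.00167 over all genes. The copper-treated libraries lay wholly above the untreated ones for 17 members and wholly below for 9 in Ishikawa cells, against 33.7 and 39% of all genes tested. In KLE cells this held for 6 and 10 members, against 28.4 and 28.2% of all genes. With upper-quartile scaling the KLE counts were 3 higher and 12 lower.

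Calls in both lines can be set side by side. HERPUD1, EDEM1, DERL1, SEC61B, SELENOS and SELENOK were higher with copper in both, and CREB3L2, PDIA4, PDIA6 and TXNDC5 were lower in both. XBP1 and CANX were called higher in Ishikawa cells and lower in KLE cells. A further 11 members were called higher in Ishikawa cells and not called in KLE cells. SDF2L1, SIL1, EDEM2 and EDEM3 were called lower in Ishikawa cells and not called in KLE cells, and HSP90B1, PPIB and PDIA3 were called lower in KLE cells and not called in Ishikawa cells. ATF6, MANF, TXNDC11 and OS9 were called in neither line. Joint calls were counted for the members only, and their share over all genes was not computed. Of all genes tested, 69.1% were called in Ishikawa and 50.8% in KLE cells. Whether the members share calls more or less often than other genes was therefore not tested.

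**Figure D1:**
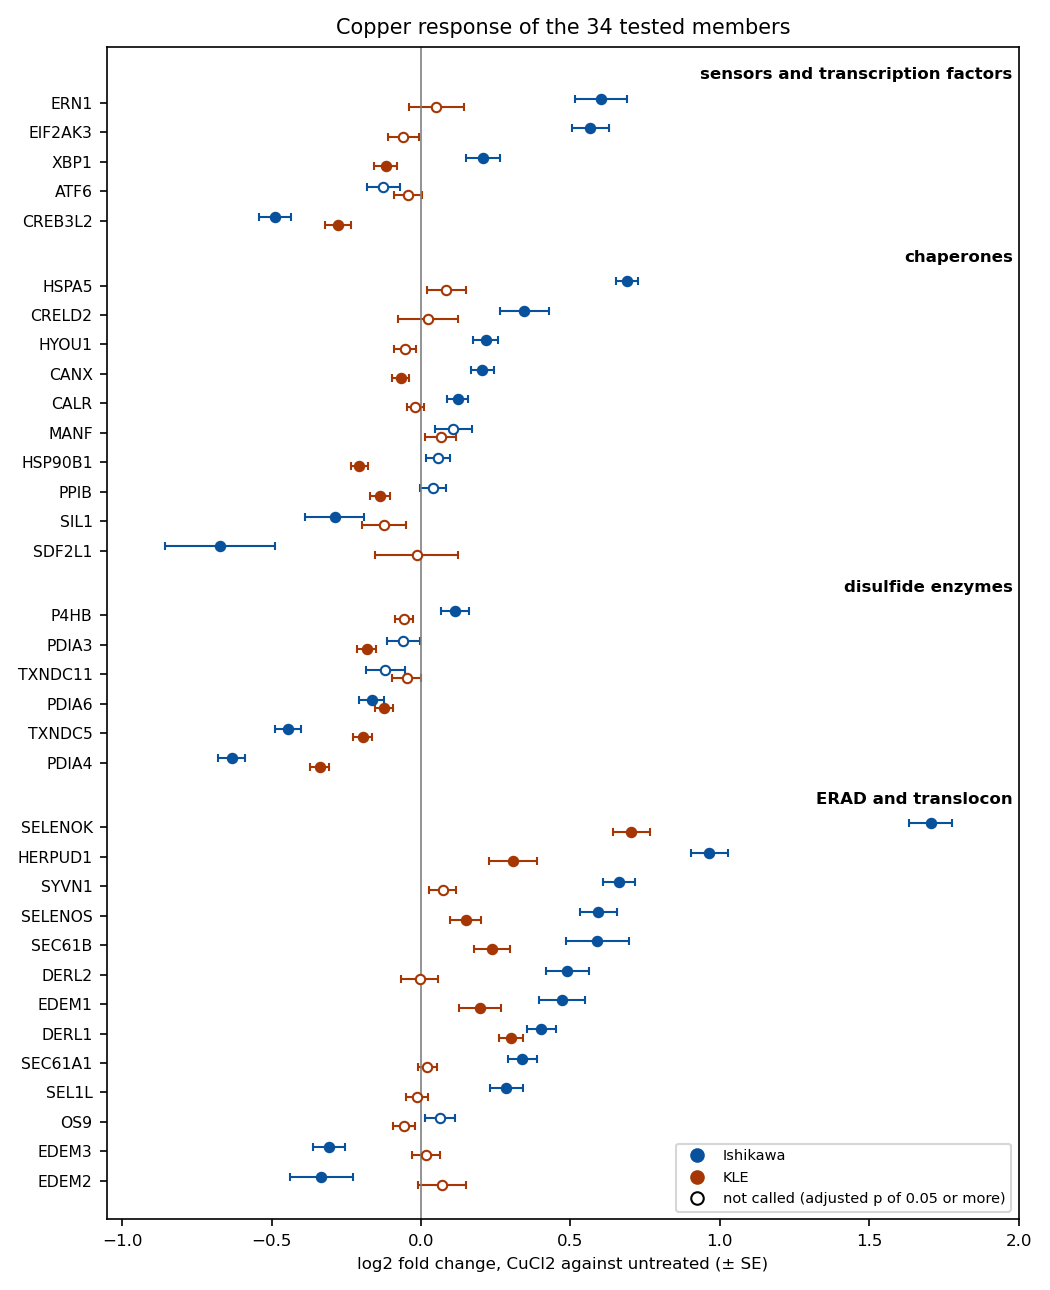
Log2 fold change with copper (± SE, horizontal axis) of the 34 tested members, grouped by role and ordered within each role by the Ishikawa value; blue points are Ishikawa cells, brown points KLE cells, and open points did not pass the adjusted p threshold of 0.05. SELENOK lies farthest to the right in both lines (1.71 and 0.70), and the disulfide enzymes lie mostly left of 0.

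Among the sensors, transcripts of the 2 kinases rose in Ishikawa cells and were not called in KLE cells. ERN1, which encodes the IRE1 kinase and endoribonuclease that splices XBP1 mRNA, stood at 16.0, 18.4 and 18.2 CPM (counts scaled by library size) in the untreated and 25.2, 26.6 and 26.7 CPM in the copper-treated Ishikawa libraries. Its KLE levels were 19.4, 15.4 and 19.0 CPM without copper and 19.6, 17.7 and 18.2 CPM with it. The Ishikawa groups did not overlap and the KLE groups did. For ERN1 the log2 fold change was 0.60 ± 0.09 (SE, edgeR adjusted p = 2.27e-05) in Ishikawa cells and 0.05 ± 0.09 (adjusted p = 0.662) in KLE cells.

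EIF2AK3, which encodes PERK, the kinase that phosphorylates the translation factor eIF2α, was also called higher in Ishikawa cells and not called in KLE cells. Its levels were 71.7, 62.2 and 71.2 CPM without and 97.4, 99.9 and 99.6 CPM with copper in Ishikawa cells, so that the groups were well separated. In KLE cells they were 62.9, 57.6 and 61.0 CPM and 58.2, 59.3 and 56.5 CPM, which overlapped. This was a log2 fold change of 0.57 ± 0.06 (edgeR adjusted p = 1.44e-06) in Ishikawa and -0.06 ± 0.05 (adjusted p = 0.358) in KLE cells. Exons of EIF2AK3 share 15.1% of their bases with genes on the opposite strand, and whether the counting used strand is not given in the sources used here.

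ATF6, the sensor that is cut in the Golgi to release a transcription factor, was not called in either line. It stood at 91.6, 85.2 and 90.3 CPM without and 79.8, 80.4 and 79.1 CPM with copper in Ishikawa cells. All 3 treated libraries lay below the untreated ones, yet the log2 fold change of -0.13 ± 0.05 had an edgeR adjusted p of 0.0517. ATF6 was called lower in 8 of 18 alternatives, among them library-total scaling (-0.28, adjusted p = 0.000272), upper-quartile scaling (-0.24, adjusted p = 0.00132), all TPM settings, and the fit without the untreated library 2 (-0.17, adjusted p = 0.0052). In KLE cells ATF6 stood at 105.0, 99.9 and 95.5 CPM without and 91.5, 102.2 and 97.5 CPM with copper, and the log2 fold change was -0.04 ± 0.05 (adjusted p = 0.45).

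XBP1, the transcription factor downstream of IRE1, was called in opposite directions in the lines, by small amounts. These are gene-level counts, in which the spliced and unspliced forms of XBP1 cannot be told apart. XBP1 stood at 161.8, 178.7 and 155.9 CPM without and 190.4, 192.8 and 178.7 CPM with copper in Ishikawa cells, groups that touched at 178.7 CPM. The KLE libraries held 165.6, 170.6 and 175.8 CPM of XBP1 without and 150.8, 161.8 and 159.5 CPM with copper, all treated libraries below the untreated ones. By log2 fold change XBP1 moved by 0.21 ± 0.06 (edgeR adjusted p = 0.00454) in Ishikawa and -0.12 ± 0.04 (adjusted p = 0.00952) in KLE cells. The Ishikawa call was lost with library-total scaling (0.05, adjusted p = 0.425) and upper-quartile scaling (0.09, adjusted p = 0.137). It was also lost in all TPM settings, with 0.03 on log2(TPM + 1) (limma adjusted p = 0.753). The KLE call was lost without the untreated library 3 (-0.10, adjusted p = 0.0768) or the treated library 1 (-0.09, adjusted p = 0.0742). In 1 fit of all 12 libraries it was lost as well (-0.12, adjusted p = 0.0575).

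CREB3L2, a membrane-bound transcription factor of the ATF6-like family that acts on secretory-pathway genes, fell in both lines. It went from 133.7, 124.5 and 136.2 CPM to 93.7, 90.2 and 91.5 CPM in Ishikawa cells and from 125.6, 114.7 and 120.6 CPM to 96.0, 102.0 and 99.7 CPM in KLE cells. Treated and untreated libraries did not overlap in either line. For CREB3L2 the log2 fold change was -0.49 ± 0.05 (edgeR adjusted p = 1.25e-06) and -0.28 ± 0.04 (adjusted p = 1.04e-06). Of the 5 sensors and factors, 3 were thus called higher and 1 lower in Ishikawa cells, and 0 higher and 2 lower in KLE cells, against 33.8% higher and 35.3% lower over all Ishikawa genes and 25.6 and 25.2% over all KLE genes. With 5 genes these counts differ from those shares by 1 or 2 genes.

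Of the 10 chaperones, 5 were called higher and 2 lower in Ishikawa cells (median log2 fold change 0.11), against 33.8% higher and 35.3% lower over all genes. In KLE cells 0 were higher and 3 (30%) lower (median -0.04), where 25.6% of all genes were higher and 25.2% lower. The share called lower is near that of all KLE genes. HSPA5 (chr9:125234853-125241343), the ER HSP70 that also holds the sensors inactive, had the largest rise. Its Ishikawa levels were 829.5, 844.5 and 839.6 CPM without and 1317, 1349 and 1306 CPM with copper. In KLE cells they were 1361, 1188 and 1312 CPM without and 1291, 1441 and 1363 CPM with copper. Copper-treated Ishikawa libraries thus lay within the range of untreated KLE libraries for HSPA5. For HSPA5 the log2 fold change was 0.69 ± 0.04 (edgeR adjusted p = 5.1e-10) in Ishikawa and 0.08 ± 0.07 (adjusted p = 0.338) in KLE cells, where it was called only with no count filter (0.09, adjusted p = 0.0194).

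HSP90B1, the ER HSP90, did not follow HSPA5. It stood at 2081, 1951 and 2131 CPM without and 2066, 2100 and 2115 CPM with copper in Ishikawa cells, and at 2180, 2064 and 2145 CPM without and 1845, 1856 and 1835 CPM with copper in KLE cells. The Ishikawa groups overlapped, and the treated KLE libraries lay below all untreated ones. The log2 fold change of HSP90B1 was 0.06 ± 0.04 (edgeR adjusted p = 0.226) in Ishikawa cells, and -0.10 (adjusted p = 0.0372) there with library-total scaling. In KLE cells it was -0.21 ± 0.03 (adjusted p = 3.59e-08), the largest called fall of a chaperone in that line.

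SDF2L1, a small partner of ER HSP40 proteins that keeps clients bound to BiP, had the largest fall of a chaperone in Ishikawa cells. Its levels were low, at 7.51, 9.61 and 6.76 CPM without and 6.09, 3.95 and 4.74 CPM with copper. In KLE cells they were 8.22, 9.23 and 7.30 CPM without and 9.98, 7.39 and 7.06 CPM with copper. The treated Ishikawa libraries lay below all untreated ones, and the KLE groups overlapped. For SDF2L1 the log2 fold change was -0.67 ± 0.18 (edgeR adjusted p = 0.00446) in Ishikawa cells, -0.51 (adjusted p = 0.0161) without the untreated library 2, and -0.01 ± 0.14 (adjusted p = 0.943) in KLE cells.

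CANX, the membrane-bound lectin chaperone, stood at 1601, 1523 and 1623 CPM without and 1796, 1795 and 1772 CPM with copper in Ishikawa cells, without overlap. In KLE cells it stood at 1631, 1542 and 1616 CPM without and 1549, 1496 and 1523 CPM with copper, and there the groups overlapped. The log2 fold change of CANX was 0.20 ± 0.04 (edgeR adjusted p = 0.000244) and -0.07 ± 0.03 (adjusted p = 0.0425). The KLE call was lost with no count filter (adjusted p = 0.0543), with DESeq2 (adjusted p = 0.0551), with the replicate block (adjusted p = 0.0791) and without untreated library 1 or 3 or treated library 2 or 3 (adjusted p from 0.107 to 0.151). The Ishikawa call was lost with library-total scaling (0.05, adjusted p = 0.225) and in all TPM settings, with 0.01 on log2(TPM + 1) (limma adjusted p = 0.86).

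Of the other chaperones, CRELD2, HYOU1 and CALR were called higher in Ishikawa cells, by log2 fold changes of 0.35, 0.22 and 0.12. CRELD2 is a secreted ER stress protein and HYOU1 an ER relative of HSP110 that exchanges nucleotide on BiP. With library-total scaling none of these 3 was called in Ishikawa cells, and the value of CALR was -0.03 (adjusted p = 0.442). In KLE cells HYOU1 was called lower with upper-quartile scaling (-0.10, edgeR adjusted p = 0.0274) and library-total scaling (-0.08, adjusted p = 0.0474). The same held without the untreated KLE library 2 (-0.10, adjusted p = 0.0271). SIL1, another nucleotide exchange factor of BiP, was called lower in Ishikawa cells (-0.29, edgeR adjusted p = 0.0177), a call lost without the treated library 2 (-0.19, adjusted p = 0.115). In KLE cells SIL1 was called lower in the TPM settings only, with -0.25 on log2(TPM + 1) (limma adjusted p = 0.0193). PPIB, the ER cyclophilin B, had 0.04 in Ishikawa cells, -0.11 (adjusted p = 0.0251) with library-total scaling, and fell by 0.14 in KLE cells (adjusted p = 0.000904). Exons of PPIB share 27.2% of their bases with SNX22 on the opposite strand. MANF, a secreted ER stress protein, had 0.11 (adjusted p = 0.135) and 0.07 (adjusted p = 0.302) in Ishikawa and KLE cells.

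**Figure D2:**
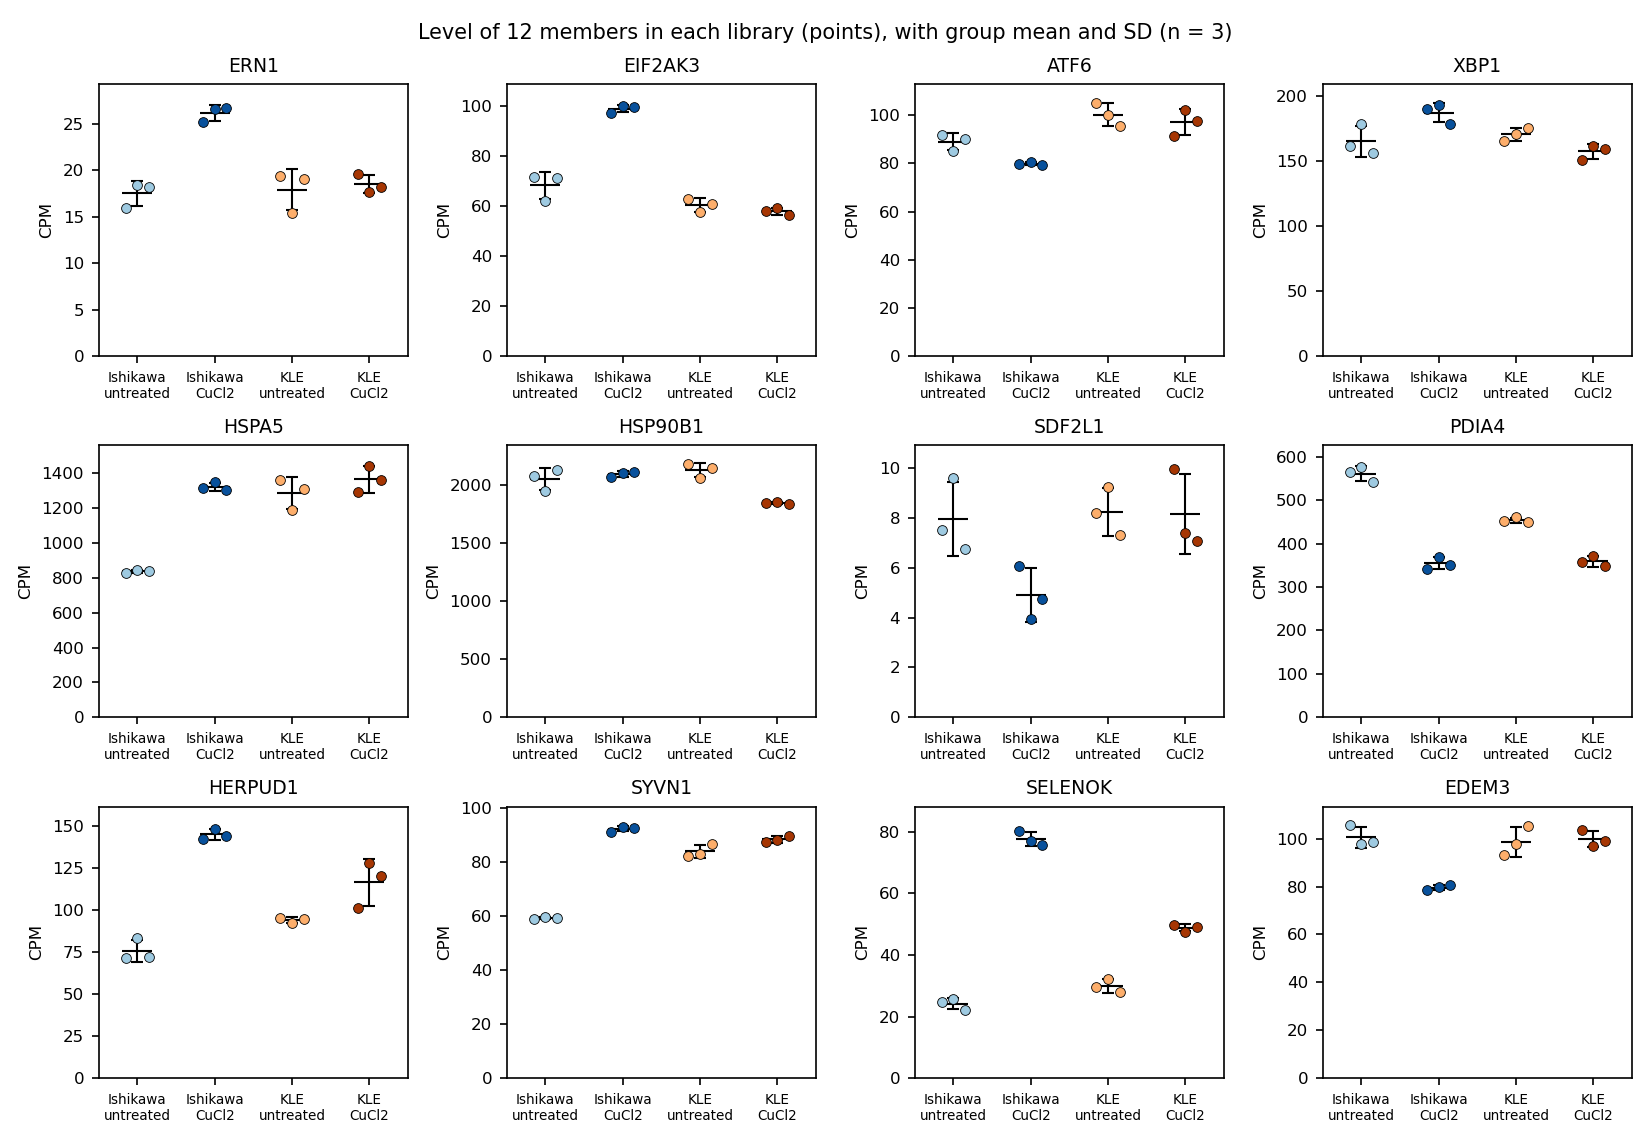
Level in CPM (vertical axis, from 0) of 12 members in each library, in 4 groups; points are libraries, the dash and bar the group mean and SD (n = 3). For HSPA5 the copper-treated Ishikawa libraries reach the level of the KLE libraries, whereas for SELENOK and HERPUD1 all treated libraries lie above the untreated ones in both lines.

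Among the disulfide enzymes, more were called lower than higher in both lines. In Ishikawa cells 3 of 6 (50%) were called lower and 1 higher (median -0.14), where 35.3% of all genes were lower and 33.8% higher. With only 6 genes, these Ishikawa counts are close to those shares. In KLE cells 4 (66.7%) were lower and 0 higher (median -0.15), where 25.2% of all genes were lower and 25.6% higher. PDIA4 (chr7:149003051-149028505), also called ERp72, a protein disulfide isomerase of the HSPA5 chaperone complex, had the largest fall in both lines. It went from 564.6, 576.0 and 541.4 CPM to 342.0, 369.4 and 351.2 CPM in Ishikawa cells, and from 451.1, 460.7 and 450.0 CPM to 356.6, 371.7 and 348.3 CPM in KLE cells. No treated library overlapped an untreated one, and the treated libraries of both lines covered nearly the same range. For PDIA4 the log2 fold change was -0.63 ± 0.04 (edgeR adjusted p = 8.36e-09) and -0.34 ± 0.03 (adjusted p = 8.71e-12).

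P4HB, the founding protein disulfide isomerase, was the only disulfide enzyme called higher in Ishikawa cells, and the call was weak. It stood at 584.2, 633.6 and 566.1 CPM without and 626.8, 644.7 and 621.2 CPM with copper, groups that overlapped. KLE libraries held 526.9, 545.6 and 535.0 CPM without and 515.4, 527.5 and 501.2 CPM with copper, which also overlapped. The log2 fold change was 0.11 ± 0.05 (edgeR adjusted p = 0.0377) in Ishikawa and -0.06 ± 0.03 (adjusted p = 0.115) in KLE cells. There P4HB was called lower with upper-quartile scaling (-0.10, adjusted p = 0.00577) and library-total scaling (-0.09, adjusted p = 0.0158). The Ishikawa value was -0.04 (adjusted p = 0.449) with library-total scaling, and the call was lost on leaving out any Ishikawa library except the untreated library 2, with adjusted p from 0.0708 to 0.175.

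TXNDC5, a thioredoxin-domain isomerase, fell by 0.44 in Ishikawa cells (edgeR adjusted p = 3.43e-07) and by 0.19 in KLE cells (adjusted p = 2.13e-06). Its exons share 60.6% of their bases with the readthrough gene BLOC1S5-TXNDC5, so its counts depend on how reads were shared. PDIA6 fell by 0.16 (adjusted p = 0.00236) and by 0.12 (adjusted p = 0.000508), and 25.2% of its exonic bases lie opposite ATP6V1C2. PDIA3 (ERp57), the isomerase that works with CALR and CANX, had -0.06 (adjusted p = 0.349) in Ishikawa cells, -0.14 (adjusted p = 0.000579) without the untreated library 2, and fell by 0.18 in KLE cells (adjusted p = 8.51e-06). PDIA3 was also called lower in Ishikawa cells with library-total scaling (-0.21, adjusted p = 0.00231) and upper-quartile scaling (-0.17, adjusted p = 0.0133). The same held in 1 fit of 12 libraries (-0.12, adjusted p = 0.041) and in all TPM settings, with -0.22 on log2(TPM + 1) (limma adjusted p = 0.0391). Exons of PDIA3 share 18.9% of their bases with genes on the opposite strand, and the annotation names 2 pseudogenes of PDIA3. TXNDC11 had -0.12 (adjusted p = 0.117) and -0.05 (adjusted p = 0.429). In Ishikawa cells 7 of 18 alternatives called TXNDC11 lower, among them library-total scaling (-0.27, adjusted p = 0.00172), the TPM settings and the fit without the untreated library 3 (-0.16, adjusted p = 0.0387).

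ERAD and the translocon had the highest median of the 4 roles in Ishikawa cells, with 10 of 13 tested genes (76.9%) called higher and 2 lower (median 0.47), where 33.8% of all genes were higher and 35.3% lower. In KLE cells 6 (46.2%) were higher and 0 lower (median 0.07), where the shares of all genes were 25.6 and 25.2%. SELENOK (chr3:53884417-53891859), a selenoprotein of the ER membrane that associates with derlins and p97, changed most. It went from 24.7, 25.7 and 22.2 CPM to 80.3, 77.1 and 75.6 CPM in Ishikawa cells and from 29.6, 32.3 and 27.9 CPM to 49.9, 47.6 and 49.0 CPM in KLE cells. The groups were far apart in both lines. The log2 fold change of SELENOK was 1.71 ± 0.07 (edgeR adjusted p = 4.08e-11) and 0.70 ± 0.06 (adjusted p = 2.09e-12). The annotation names 3 pseudogenes of SELENOK, whose reads may have been shared with it.

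HERPUD1 (chr16:56932142-56944864), an ER membrane protein with a ubiquitin-like domain that assembles the SYVN1 ligase complex, came next. It stood at 71.2, 83.0 and 72.1 CPM without and 142.1, 148.2 and 143.9 CPM with copper in Ishikawa cells. In KLE cells it stood at 95.1, 91.9 and 94.8 CPM without and 101.0, 128.0 and 119.8 CPM with copper. Treated libraries lay above all untreated ones in both lines, by a narrow margin in KLE cells. On the log2 scale HERPUD1 changed by 0.96 ± 0.06 (edgeR adjusted p = 3.18e-09) in Ishikawa and 0.31 ± 0.08 (adjusted p = 0.0132) in KLE cells. The KLE call was lost without the untreated library 1 (adjusted p = 0.0775) or 2 (adjusted p = 0.0901). It was also lost with upper-quartile scaling (0.26, adjusted p = 0.0525) and on log2(TPM + 1) (0.28, limma adjusted p = 0.0545).

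The ligase SYVN1 (HRD1) rose by 0.66 in Ishikawa cells (edgeR adjusted p = 4.36e-08), from 59.2, 59.8 and 59.5 CPM to 91.4, 93.2 and 92.7 CPM, and its partner SEL1L by 0.29 (adjusted p = 0.00035). On log2(TPM + 1) the SEL1L value was 0.06 (adjusted p = 0.418) and the call was lost. In KLE cells SYVN1 had 0.07 (adjusted p = 0.182) and SEL1L -0.01 (adjusted p = 0.794). Exons of SYVN1 share 10.1% of their bases with other genes, FAU and MIR6751 on the same strand and MRPL49 on the opposite one. The channel and membrane components DERL1, DERL2 and SELENOS (VIMP, which recruits p97) rose by 0.40, 0.49 and 0.59 in Ishikawa cells. In KLE cells DERL1 rose by 0.30 (adjusted p = 9.59e-08), SELENOS by 0.15 (adjusted p = 0.0171), and DERL2 had -0.00387 (adjusted p = 0.968). The translocon subunits SEC61B and SEC61A1 rose by 0.59 and 0.34 in Ishikawa cells and had 0.24 (adjusted p = 0.000974) and 0.02 (adjusted p = 0.607) in KLE cells. The Ishikawa call of SEC61A1 was lost on log2(TPM + 1) (0.15, adjusted p = 0.0838).

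The EDEM proteins, which bring mannose-trimmed glycoproteins to ERAD, did not move together. EDEM1 rose by 0.47 in Ishikawa cells (edgeR adjusted p = 6.67e-05) and by 0.20 in KLE cells (adjusted p = 0.019); on log2(TPM + 1) the EDEM1 values were 0.24 (adjusted p = 0.0794) and 0.16 (adjusted p = 0.321). EDEM2 went from 17.9, 17.8 and 14.9 CPM to 13.7, 12.8 and 13.0 CPM in Ishikawa cells, without overlap. In KLE cells it stood at 20.1, 22.1 and 20.2 CPM without and 22.9, 22.2 and 20.4 CPM with copper, with overlap. On the log2 scale EDEM2 had -0.33 ± 0.10 (adjusted p = 0.0106) and 0.07 ± 0.08 (adjusted p = 0.48). EDEM3 fell by 0.31 in Ishikawa cells (adjusted p = 0.000152) and had 0.02 (adjusted p = 0.795) in KLE cells. OS9, a lectin that presents glycoproteins to SEL1L, had 0.06 (adjusted p = 0.28) and -0.06 (adjusted p = 0.207). In KLE cells OS9 was called lower with upper-quartile scaling (-0.10, edgeR adjusted p = 0.0222) and library-total scaling (-0.09, adjusted p = 0.0476). The KLE calls of EDEM1 and SELENOS were lost with DESeq2 (adjusted p = 0.0632 and 0.0591). Each was also lost without the untreated library 3 or the treated library 1, EDEM1 without the untreated library 1 (adjusted p = 0.0922) and SELENOS without the untreated library 2 (adjusted p = 0.0531).

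The difference between the copper responses of the lines was tested in 1 fit of all 12 libraries, as the KLE response minus the Ishikawa response. Of the 34 members, 14 (41.2%) had a significantly lower response in KLE cells, 6 (17.6%) a higher one, and 14 were not called. Over all 13663 genes, 24.6% were higher and 20.8% lower, 45.4% in either direction. The members' median was -0.16 and that of all genes 0.03. By role, those lower were 7 ERAD genes, 4 chaperones, the sensors ERN1 and EIF2AK3, and the factor XBP1. The 6 called higher were 2 disulfide enzymes, 2 ERAD genes, 1 chaperone and 1 factor.

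The largest differences were those of SELENOK (-0.94 ± 0.10, edgeR adjusted p = 4.57e-08), SDF2L1 (0.72 ± 0.24, adjusted p = 0.0207), HERPUD1 (-0.60 ± 0.10, adjusted p = 9.57e-05) and EIF2AK3 (-0.57 ± 0.08, adjusted p = 6.19e-06). For SELENOK and HERPUD1 both lines rose and Ishikawa cells rose more. For EIF2AK3 the rise was called in Ishikawa cells, and for SDF2L1 the fall was. The SDF2L1 difference was not called without the untreated Ishikawa library 2 (0.55, adjusted p = 0.0587), the treated Ishikawa library 2 (0.52, adjusted p = 0.101) or 3, the untreated KLE library 1 or 3, or the treated KLE library 1. The response of HSPA5 differed by -0.55 ± 0.06 (adjusted p = 2.74e-07) and that of SYVN1 by -0.53 ± 0.06 (adjusted p = 6.49e-07), both responses being lower in KLE cells. Without the untreated Ishikawa library 2 the counts were 16 lower and 6 higher, with calls gained for P4HB (-0.16, adjusted p = 0.00418), SEC61B (-0.46, adjusted p = 9.31e-05) and ATF6 (0.18, adjusted p = 0.0412). In all 3 TPM settings the differences of XBP1, ERN1, HSP90B1, CANX, HYOU1, SEL1L and SEC61A1 were not called, and 7 members were lower.

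The untreated lines already differed in these genes. This comparison uses the same untreated libraries as the copper comparisons, and line and culture cannot be told apart in it. In untreated KLE cells 14 of 34 members were called higher than in untreated Ishikawa cells and 6 lower, where 24.5% of all 13663 genes were called higher and 25.6% lower, 50% in either direction. ERAD genes made up 9 of the 14, with 0 of 13 lower. HSPA5 was 1.53-fold higher (log2 0.62 ± 0.04, edgeR adjusted p = 5.69e-11), EDEM1 differed by 0.55 (adjusted p = 2.82e-06), SYVN1 by 0.50 (adjusted p = 3.65e-09) and HERPUD1 by 0.31 (adjusted p = 0.00165), a call lost on log2(TPM + 1) (0.22, adjusted p = 0.0608). PDIA4 was lower in untreated KLE cells, by -0.31 ± 0.04 (adjusted p = 3.1e-07). Without the untreated Ishikawa library 2 the counts were 15 higher and 5 lower, with SEC61A1 gained (0.14, adjusted p = 0.00177) and HYOU1 lost (-0.09, adjusted p = 0.0563). The count of members called lower was 3 without the untreated Ishikawa library 1 or the untreated KLE library 2.

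Ratios of 2 members within a library need no scaling between libraries. The ratio of HSPA5 to HSP90B1 in TPM went from 0.376 ± 0.0156 to 0.589 ± 0.0169 in Ishikawa cells and from 0.568 ± 0.0280 to 0.702 ± 0.0356 in KLE cells (SD, n = 3). No treated library overlapped an untreated one in either line. PDIA4 to HSPA5 went from 0.719 ± 0.0338 to 0.283 ± 0.0144 in Ishikawa cells and from 0.372 ± 0.0331 to 0.274 ± 0.0128 in KLE cells, again without overlap. SDF2L1 to HSPA5 went from 0.0344 ± 0.00672 to 0.0133 ± 0.00271 in Ishikawa cells without overlap, and from 0.0229 ± 0.00408 to 0.0212 ± 0.00528 in KLE cells, with overlap. HERPUD1 to SEL1L, both of the same ligase complex, went from 1.72 ± 0.138 to 2.78 ± 0.141 and from 1.75 ± 0.137 to 2.16 ± 0.295; the Ishikawa groups did not overlap and the KLE groups did. With 3 libraries against 3, an exact permutation test cannot give a two-sided p below 0.10, so no p is given for these ratios.

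**Figure D3:**
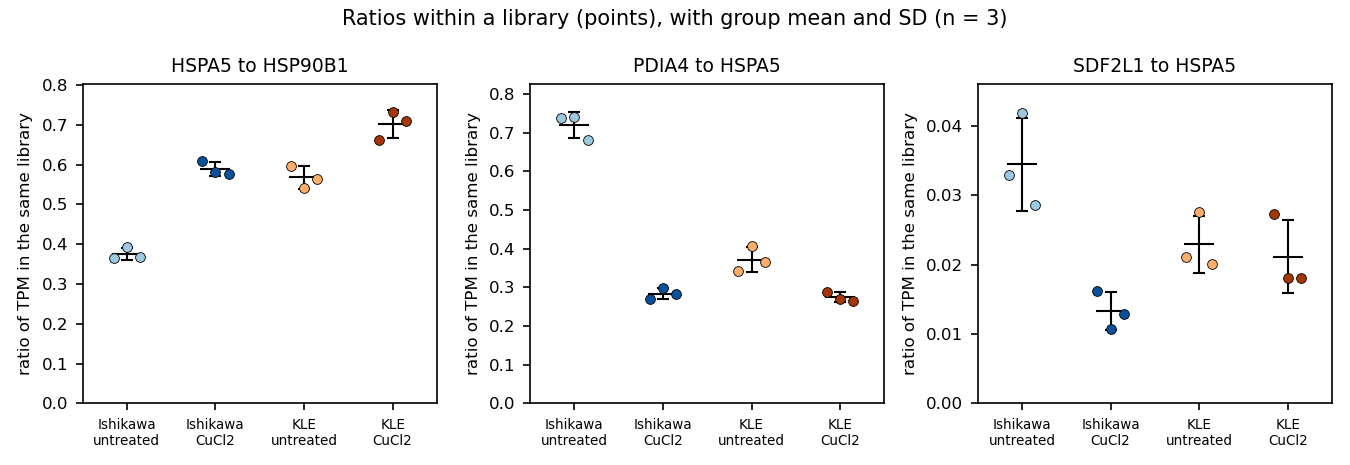
Ratio of the TPM of 2 members in the same library (vertical axis, no unit, from 0) in the 4 groups; points are libraries, the dash and bar the group mean and SD (n = 3). For HSPA5 to HSP90B1 all copper-treated libraries lie above the untreated ones in both lines and for PDIA4 to HSPA5 all lie below, while for SDF2L1 to HSPA5 they lie below in Ishikawa cells and overlap in KLE cells.

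Summed over a role, the TPM of the 6 disulfide enzymes went from 2613 ± 22.5 to 2046 ± 45.7 in Ishikawa cells and from 2457 ± 50.4 to 2118 ± 59.1 in KLE cells (SD, n = 3). The sum of the 14 ERAD and translocon genes went from 1088 ± 77.3 to 1358 ± 14.9 and from 1160 ± 46.2 to 1248 ± 8.79. Chaperones stood at 5885 ± 8.48 and 5855 ± 35.7 in Ishikawa cells and at 6160 ± 133 and 5707 ± 86.3 in KLE cells. The KLE chaperone groups did not overlap, and the Ishikawa ranges did. TPM share a fixed total, and on this scale the median log2 fold change of genes with a mean of at least 1 TPM was -0.17 in Ishikawa cells, so a sum that falls on this scale is read against that shift.

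Of the 10 members with an ERSE or ERSE-II in the promoter window, 7 were called higher in Ishikawa cells (XBP1, HSPA5, CALR, CANX, HYOU1, CRELD2 and HERPUD1), 2 lower (SDF2L1 and PDIA6) and 1 not called (HSP90B1). In KLE cells 1 was higher (HERPUD1), 4 lower (XBP1, HSP90B1, CANX and PDIA6) and 5 not called. Of the 22 members matched to a window without either element, 11 were higher and 6 lower in Ishikawa cells, and 4 higher and 4 lower in KLE cells. These counts stand beside 33.8% higher and 35.3% lower over all Ishikawa genes and 25.6 and 25.2% over all KLE genes. The Ishikawa counts depend on scaling. Among members with an element, XBP1, CALR, CANX, HYOU1 and CRELD2 lost the call with library-total scaling and in all TPM settings. HSPA5, HERPUD1, SDF2L1 and PDIA6 kept theirs there. Among members without one, P4HB lost its call in all of these settings, and SEL1L, EDEM1 and SEC61A1 in the TPM settings. SELENOK, which had the largest rise, held none of the 5 motifs in its window. HERPUD1 and SDF2L1 both carry an ERSE-II and were called in opposite directions in Ishikawa cells.

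Other genes of the same processes were taken from 11 lists drawn up by function. Of the 9 genes of the PERK arm and CHOP, 9 rose in Ishikawa cells (median 0.98) and 2 in KLE cells (median 0.05). PPP1R15A, which restores translation by dephosphorylating eIF2α, rose by 2.33 (edgeR adjusted p = 8.08e-11) and by 0.67 (adjusted p = 0.0146). Among 7 other ER co-chaperones of the HSP40 family, 6 rose in Ishikawa cells and 3 in KLE cells, led by DNAJB9 (ERdj4, a partner of BiP) at 1.51 (adjusted p = 1.8e-10) and 0.39 (adjusted p = 1.09e-05). Of 24 other ERAD ligases, E2 enzymes and extraction factors, 16 rose and 2 fell in Ishikawa cells (median 0.50) and 14 rose and 2 fell in KLE cells (median 0.21). UFD1, which helps p97 pull proteins out of the membrane, rose by 1.75 (adjusted p = 2.89e-12) and by 0.62 (adjusted p = 4e-14).

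Of 15 other translocon, signal peptidase and TRAP genes, 11 rose and 1 fell in Ishikawa cells, and 4 rose and 1 fell in KLE cells. SEC61A2, the second SEC61 alpha subunit, rose by 0.92 (adjusted p = 1.29e-06) and by 0.47 (adjusted p = 5.92e-05), and SSR1 of the TRAP complex fell by 0.12 (adjusted p = 0.02) and by 0.14 (adjusted p = 0.000291). For comparison outside the ER, 9 of 10 cytosolic targets of the heat shock factor HSF1 rose in Ishikawa cells (median 1.39) and 7 rose and 1 fell in KLE cells (median 0.45). HSPA1A, the inducible cytosolic HSP70, had log2 fold changes of 6.83 (adjusted p = 6.02e-16) and 2.80 (adjusted p = 1.71e-22), and its counts depend on how reads were shared with the near-identical HSPA1B. Gene counts in these lists are read against 33.8 and 35.3% of all genes in Ishikawa cells and 25.6 and 25.2% in KLE cells.

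**Figure D4:**
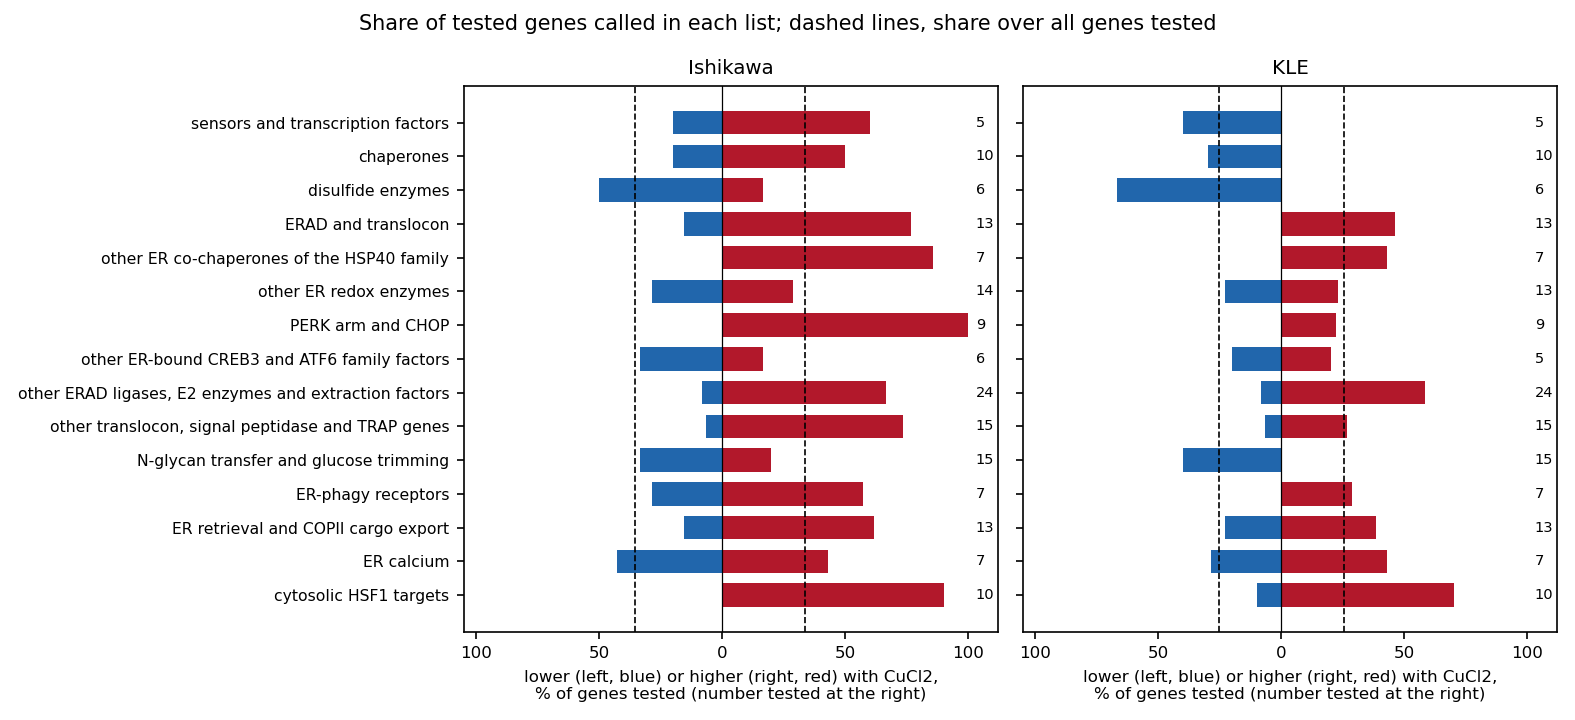
Percentage of the tested genes of each list (rows; number tested at the right) called higher (red, right of 0) or lower (blue, left of 0) with copper in Ishikawa and KLE cells; dashed lines are the percentages over all genes tested. In Ishikawa cells the PERK arm and CHOP list reaches 100% higher and ERAD and translocon 76.9%. The disulfide enzymes have 50% lower, which is 3 of 6 genes, against 35.3% of all genes.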

How the data were processed

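Poly(A)-selected RNA of 12 libraries was sequenced on an Illumina instrument, per the labels' protocols. The submitters' processing notes name RSEM, HISAT2 2.1.0, Bowtie2 2.2.8, fastp 0.18.0, R 4.2.2, DESeq2 and the build GRCh38.p14. Not given in the sources used here is which step used which tool and whether counting used strand. The whole-count tables deposited by the authors hold their expected counts rounded, with differences of at most 0.5, and were used for the tests. The authors' TPM, also in the tables named for FPKM per the file headers, were used for levels between genes. Expected counts of the authors served only for that check.

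Testing used edgeR 4.0.16 in R 4.3.3, with a two-sided quasi-likelihood test, TMM factors, filterByExpr and a robust fit. Calls had a Benjamini-Hochberg adjusted p under 0.05 over all genes. The procedure was checked on simulated data with 200 changed genes, as many up as down. Far more genes were called in the real data, so that check does not cover the scaling between libraries. Copper was compared within the 6 libraries of each line; the response difference and the untreated lines were contrasts over all 12. The SE is the absolute log2 fold change over the square root of F. CPM were scaled with TMM over 12 libraries. Alternatives were other scalings, count filters, DESeq2 1.42.0, limma-voom (limma 3.58.1), limma on log2(TPM + 1) and log2(TPM + 0.1), a log2 threshold of 1, a replicate block, 1 fit of 12 libraries, and each library left out.

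The members and lists were chosen with earlier results of these data known. All members are accounted for. Library values are given for sensors, HSPA5, HSP90B1, SDF2L1 and HERPUD1, for the largest called rise and fall of each role in each line, for members called in opposite directions and for the 4 largest called response differences; values of other members, and SYVN1 by library, were named after they were seen. Of each related list, the largest called rise and fall in Ishikawa cells are named, except for an item that is not reported here.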

Additional observations from a re-analysis of the deposited data

Results flagged for a closer look

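Of the 34 tested members, 20 had a copper response that differed between the lines by the interaction test of the 12-library edgeR fit. The values are log2 responses of KLE minus Ishikawa cells, and no explanation was tested. Among the sensors and factors the differences were -0.57 for EIF2AK3, -0.49 for ERN1, -0.27 for XBP1 and 0.27 for CREB3L2. For chaperones they were -0.55 for HSPA5, -0.22 for CANX, -0.21 for HYOU1, -0.21 for HSP90B1 and 0.72 for SDF2L1. The disulfide enzymes PDIA4 and TXNDC5 had 0.35 and 0.31, that is a smaller fall in KLE cells. In ERAD the values were -0.94 for SELENOK, -0.60 for HERPUD1, -0.53 for SYVN1, -0.44 for DERL2, -0.39 for SELENOS, -0.26 for SEC61A1, -0.24 for SEL1L, 0.46 for EDEM2 and 0.38 for EDEM3. The differences of XBP1, ERN1, HSP90B1, CANX, HYOU1, SEL1L and SEC61A1 were not called in any of the 3 TPM settings; on log2(TPM + 1) that of ERN1 was -0.35 (adjusted p = 0.107) and that of SEL1L -0.0727 (adjusted p = 0.647). Groups of 3 libraries are too small for the test for an outlying library.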

How the results depend on the processing

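Not counting the threshold of 1 on the log2 scale, 17 of 27 called members kept their call under every alternative in Ishikawa cells, 9 of 15 in KLE cells, 12 of 20 for the response difference and 11 of 20 for the untreated lines. The cause of each change below was not tested. In Ishikawa cells library-total scaling gave 13 members lower, and the 3 TPM settings gave 10 higher and 13 lower each. Without the TPM filter DERL3 was tested and is among the 13, and with it HSP90B1 is. With the TPM filter 2824 of all genes were higher. In KLE cells members called higher were 3 with upper-quartile scaling and 3 on log2(TPM + 1), and all genes called higher were 1966, 2029 and 2092 in the TPM settings. For the response difference, members called lower were 7, 7 and 7 in the TPM settings, with 1770 of all genes lower under the TPM filter. For the untreated lines, members higher were 9 on log2(TPM + 1) and 9 on log2(TPM + 0.1). Requiring a change of at least 1 on the log2 scale left 1 member higher and 0 lower in Ishikawa cells (1046 and 1178 of all genes), and 0 and 0 members elsewhere, with 242 and 468 genes in KLE cells, 431 and 510 for the response difference and 754 and 704 for the untreated lines.

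Among values called under either setting, signs turned in Ishikawa cells only. With library-total scaling HSP90B1 had -0.10, CALR -0.0316, PPIB -0.11 and P4HB -0.0402. On log2(TPM + 1) CALR had -0.0730, PPIB -0.14 and P4HB -0.0703, and on log2(TPM + 0.1) CALR had -0.0731, PPIB -0.14 and P4HB -0.0705. With the TPM filter HSP90B1 had -0.12, CALR -0.0730, PPIB -0.14 and P4HB -0.0703.

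Leaving out each library gave 18 to 19 members higher and 7 to 10 lower in Ishikawa cells (4214 to 4618 and 4320 to 4801 of all genes), and 4 to 6 and 7 to 10 in KLE cells (2943 to 3122 and 2894 to 3116). The response difference gave 5 to 6 and 14 to 18 members (2590 to 3529 and 2582 to 3122 genes), and the untreated lines 13 to 15 and 3 to 6 (2971 to 3397 and 3064 to 3486). The deviations of 18 pairs of libraries with the same replicate number correlated from -0.108 to 0.192, with 1 over 0.1. Pairs with different numbers were not compared, so this check cannot decide whether replicate numbers pair the samples. With the replicate block 19 members were higher and 8 lower in Ishikawa cells and 6 and 8 in KLE cells, where CANX was not called (-0.07, adjusted p = 0.0791), and it changed no other call of a member in either line. Depth limits SDF2L1 and DERL3, the members with the fewest counts.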

Other observations

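Further lists of the secretory pathway held calls in both directions in Ishikawa cells. Their counts stand beside 33.8% higher and 35.3% lower over all Ishikawa genes and 25.6 and 25.2% over all KLE genes. For the ER redox enzymes the shares were near these, at 28.6% each way in Ishikawa and 23.1% each way in KLE cells. Of 14 other ER redox enzymes tested in Ishikawa cells, 4 rose and 4 fell, and of 13 tested in KLE cells 3 rose and 3 fell. The thioredoxin-like TMX3 rose by 0.76 (edgeR adjusted p = 4.54e-08) and by 0.25 (adjusted p = 1.53e-06), while the sulfhydryl oxidase QSOX1 fell by 0.81 in Ishikawa cells (adjusted p = 9.71e-08) and rose by 0.26 in KLE cells (adjusted p = 1.6e-07). The test of the QSOX1 response difference gave 1.12 (adjusted p = 2.04e-10). Of 15 genes of N-glycan transfer and glucose trimming, 3 rose and 5 fell in Ishikawa cells and 0 rose and 6 fell in KLE cells. The mannosidase MAN1B1 had -0.64 (adjusted p = 1.36e-06) and -0.08 (adjusted p = 0.201), and the oligosaccharyltransferase subunit MAGT1 had 0.32 (adjusted p = 0.000203) and 0.04 (adjusted p = 0.493).

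Of 13 genes of ER retrieval and COPII export, 8 rose and 2 fell in Ishikawa cells and 5 rose and 3 fell in KLE cells. SAR1B, the GTPase that starts the COPII coat, rose by 0.60 (adjusted p = 6.72e-08) and by 0.23 (adjusted p = 2.84e-05), and the KDEL receptor KDELR3 fell by 0.56 (adjusted p = 5.78e-06) and by 0.43 (adjusted p = 5.2e-09). Of 7 ER-phagy receptors, 4 rose and 2 fell in Ishikawa cells and 2 rose in KLE cells. RETREG1 had 0.89 (adjusted p = 5.46e-05) and 0.24 (adjusted p = 0.123), and TEX264 had -0.27 (adjusted p = 0.0311) and 0.13 (adjusted p = 0.126). Of 7 ER calcium genes, 3 rose and 3 fell in Ishikawa cells and 3 rose and 2 fell in KLE cells. TMCO1, an ER calcium channel, rose by 0.88 (adjusted p = 7.83e-10) and by 0.24 (adjusted p = 1.11e-06), and the calcium pump ATP2A3 fell by 1.86 (adjusted p = 4.56e-06) and by 1.27 (adjusted p = 0.00016). Of the other ER-bound CREB3 and ATF6 family factors and proteases, 1 of 6 rose and 2 fell in Ishikawa cells, and 1 of 5 rose and 1 fell in KLE cells. CREB3 rose by 0.96 (adjusted p = 1.21e-08) and by 0.46 (adjusted p = 4.52e-09), and MBTPS2, a protease that cuts ATF6, had -0.55 (adjusted p = 2.81e-06) and -0.08 (adjusted p = 0.217).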
